A study of Homo sapiens with 8 samples.

Results

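Genes of the hypoxia response and of glycolysis were followed over 8 expression arrays of SKBR3 cells, 1 array per condition. The set was a list of 40 gene symbols, 16 of them enzymes of glycolysis and 24 other genes known as targets or regulators of hypoxia-inducible factor (HIF). Every probe set that the platform annotation assigned to 1 of these symbols and to no other gene was used, and the probe sets of a gene were averaged. This gave 39 measured genes of 19775 in all, namely the 16 enzymes and 23 of the 24 others, with 87 probe sets. CA9, the hypoxia-inducible carbonic anhydrase, was not analysed here. Of the measured genes 26 had several probe sets and 13 had 1.

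SKBR3 is an established HER2-positive human breast cancer line, generally held to lack the nuclear receptor ESR1 and to carry GPER, an estrogen receptor of cell membranes. All cultures spent 4 h in 10% charcoal-stripped serum, which is depleted of steroids, before a treatment of 3 h. One array was of untreated cells, 1 of cells given 0.1% ethanol, 1 of estradiol at 1e-06 M, 1 of estradiol coupled to bovine serum albumin (E2-BSA) at 1e-06 M, and 1 of the carrier BSA at 1e-06 M. A further array was of G15, a GPER antagonist, at 1e-05 M. On the last arrays E2-BSA at 1e-06 M was combined with 1e-05 M of an agent that the labels name ICI, or with 1e-05 M of G15. The series is titled as a time course, while the arrays analysed here are all of 3 h. Whether the E2-BSA concentration counts the conjugate or the estradiol on it is unknown here.

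HIF is a dimer of an oxygen-regulated alpha subunit, such as HIF1A, and a stable beta subunit. When oxygen is plentiful, prolyl hydroxylases of the EGLN family mark the alpha subunit for destruction by the VHL ubiquitin ligase; when it is scarce, the dimer binds DNA and raises transcription of glucose transporters, glycolytic enzymes and angiogenic peptides. Breast cancer cells often run glycolysis at a high rate even in oxygen, and several of these genes also answer to growth factor, stress and inflammatory signals.

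The dimer binds the short element RCGTG, so the letters ACGTG and GCGTG were searched on both strands in the 250 bases upstream of RefSeq start sites (GRCh38.p14). Matching by symbol found 35 of the 40 genes, with 65 start sites. ACGTG was present in 43.1% of these promoters, that is 28 of 65, against 18.5% of the 35116 promoters of all genes in that table. It was in 38.9% of the promoters of glycolytic enzymes and in 48.3% of those of the other members. GCGTG was in 38.5%, against 32.2% of all promoters, with the enzymes below that share, at 27.8%, and the other members above it, at 51.7%. These shares count start sites, and HK1 and PFKM each supply 7 of the 36 enzyme sites. Counted by gene, GCGTG was upstream of at least 1 site in 9 of 16 enzymes, 11 of 19 others and 9889 of 27305 genes. ACGTG was so in 11 of 16, 12 of 19 and 5935 of 27305. The enzymes were thus below all genes in GCGTG only when sites were counted. A match describes the letters and is not a binding site. The sequences shown are those of PFKFB3 and ADM, which had the widest ranges over the arrays, and of HK2 and PGK1. These 2 enzyme genes were picked because they hold both elements, so they are examples and no comparison. PKM and EGLN3, also of wide range, held 0 ACGTG and 0 GCGTG. Whether the elements go with the ranges was not tested. Capitals mark each ACGTG or GCGTG, or its reverse complement CACGT or CACGC, and all these genes lie on the plus strand. PFKFB3 site 1 is chr10:6144671-6144920, PFKFB3 site 2 is chr10:6202682-6202931, ADM is chr11:10304823-10305072, HK2 site 1 is chr2:74833877-74834126 and PGK1 is chrX:78103998-78104247.
PFKFB3 site 1: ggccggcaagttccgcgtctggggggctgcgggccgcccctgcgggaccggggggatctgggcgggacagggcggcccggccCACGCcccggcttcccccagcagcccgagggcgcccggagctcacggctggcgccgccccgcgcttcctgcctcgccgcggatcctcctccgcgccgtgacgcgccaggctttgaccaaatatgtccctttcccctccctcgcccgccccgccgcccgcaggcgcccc
PFKFB3 site 2: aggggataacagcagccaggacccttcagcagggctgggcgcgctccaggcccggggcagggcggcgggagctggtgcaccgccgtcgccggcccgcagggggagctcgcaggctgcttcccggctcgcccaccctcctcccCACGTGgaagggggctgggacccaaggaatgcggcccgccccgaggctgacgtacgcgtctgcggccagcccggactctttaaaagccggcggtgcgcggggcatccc
ADM: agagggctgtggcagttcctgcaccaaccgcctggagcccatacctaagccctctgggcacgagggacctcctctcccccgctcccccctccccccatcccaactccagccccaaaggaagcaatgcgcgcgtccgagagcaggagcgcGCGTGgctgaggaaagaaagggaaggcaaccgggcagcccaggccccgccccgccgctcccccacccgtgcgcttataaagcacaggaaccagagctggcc
HK2 site 1: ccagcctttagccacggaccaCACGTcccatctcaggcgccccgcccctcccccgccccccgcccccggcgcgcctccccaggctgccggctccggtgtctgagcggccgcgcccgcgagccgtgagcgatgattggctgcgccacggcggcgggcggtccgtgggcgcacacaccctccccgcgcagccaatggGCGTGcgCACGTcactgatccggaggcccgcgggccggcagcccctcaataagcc
PGK1: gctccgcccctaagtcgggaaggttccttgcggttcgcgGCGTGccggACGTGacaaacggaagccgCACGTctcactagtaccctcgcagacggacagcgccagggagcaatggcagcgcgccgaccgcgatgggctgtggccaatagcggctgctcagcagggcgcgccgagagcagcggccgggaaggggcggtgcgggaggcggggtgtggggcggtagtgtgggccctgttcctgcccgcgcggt
The capitals of the second PFKFB3 start site spell CACGTG, a palindrome that reads ACGTG on each strand, and its first base lies at -108 from the start. The first PFKFB3 site holds 1 GCGTG, and so does ADM. HK2 site 1 and PGK1 each hold 2 ACGTG and 1 GCGTG. The second start site of HK2, not printed, holds 4 ACGTG and 2 GCGTG.

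Values as deposited are taken here as log2, with the level of each probe set removed, so they compare arrays for 1 gene and never 1 gene with another. A value near 0 is close to the gene's middle value over the arrays, and a difference of 1 is 2-fold. With 1 array per condition no difference has a replicate error or a test, and fewer cells and less RNA per cell cannot be told apart. The ethanol array stood apart from the others: its values had an SD over all genes of 0.277, against 0.087 to 0.145 on the other 7. It also carried a high inflammatory list (CXCL8, TNFAIP3, NFKBIA and others), with 13 of 15 genes at least 2-fold above untreated and a median difference of 1.94, and a high stress list, with 9 of 10 genes and a median of 1.93. The part of these signals in the results with ethanol was not tested. Because levels are removed, the cell type could not be checked by its markers; the array medians of luminal markers such as ERBB2 and KRT8 lay between -0.038 and 0.037.

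Most of the set varied little. Of the 39 genes 7 (17.9%) had a range over the 8 arrays of at least 1.5-fold, against 13.5% of all genes, and without the ethanol array 2 genes, PFKFB3 and PKM, had such a range over the 7 arrays, against 6.09% of all genes. Just 1 of the 7, PKM, is a glycolytic enzyme. The median range was 0.207 for the 16 enzymes and 0.297 for the 23 others, against 0.337 for all genes.

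**Figure D1:**
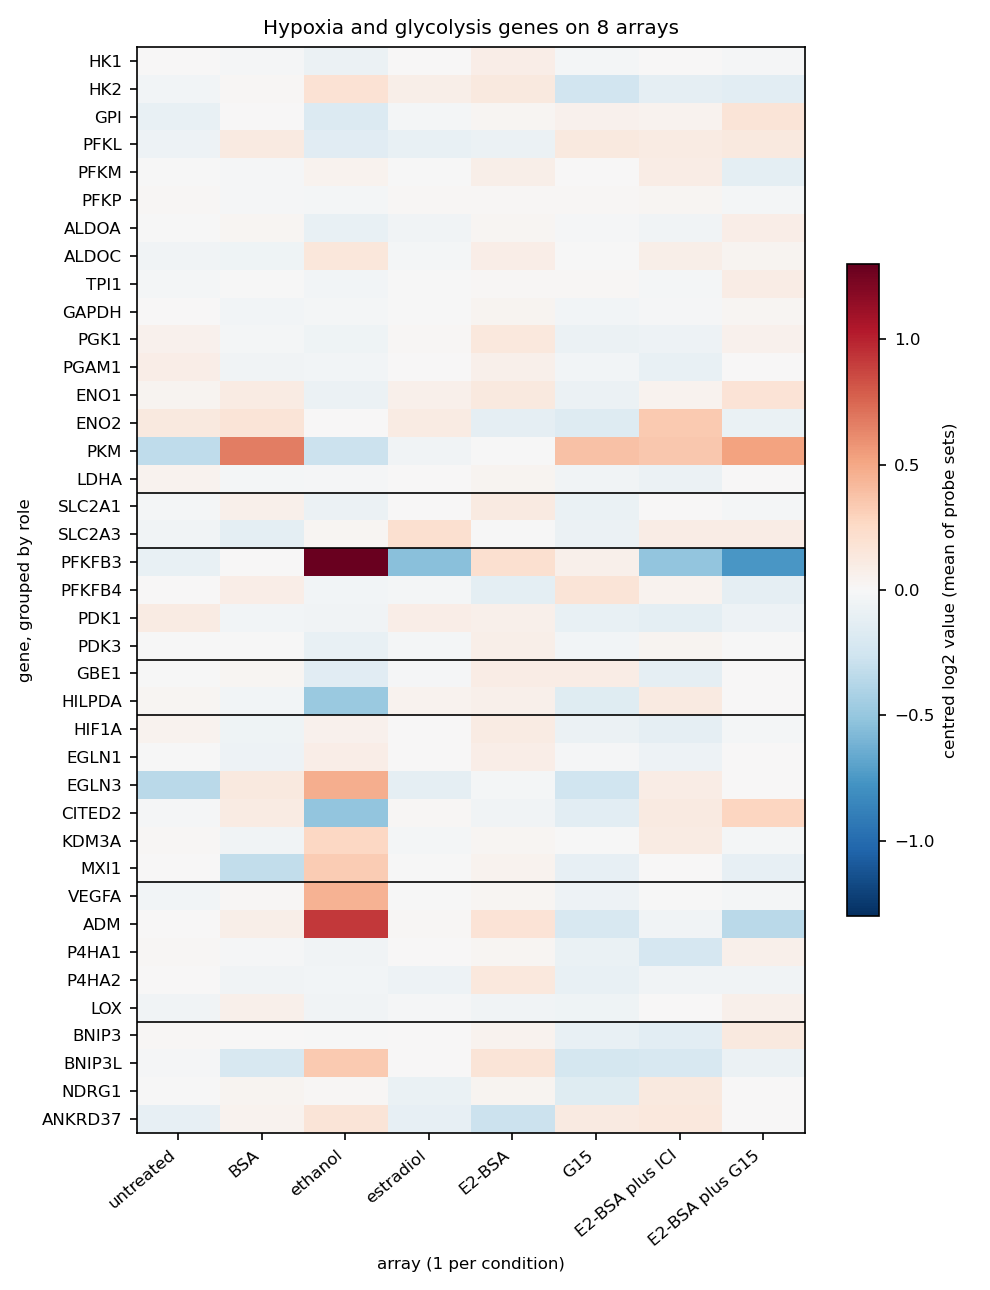
Centred log2 values of the 39 measured genes (one per line, grouped by role) on the 8 arrays, as colour. PFKFB3 and ADM are high on the ethanol array, at 1.28 and 0.92, while most enzymes are near 0 on every array.

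As means of their probe sets, the enzymes of glycolysis came close to flat. Some single probe sets varied more. HK2 239410_at was 0.31 with ethanol and -0.47 with G15, and ENO1 240258_at was 0.54 with BSA and -0.18 with G15. GAPDH, which oxidises glyceraldehyde 3-phosphate and is often used as a reference gene, had a range of 0.066, and LDHA, the lactate dehydrogenase subunit, 0.122. PFKP, a phosphofructokinase, had the narrowest range of the set, at 0.056. The 15 enzymes other than PKM reached at most 0.507, in ENO2, the neuronal enolase. ENO2 was highest with E2-BSA plus ICI, at 0.34, and lowest with G15, at -0.17. HK2, the inducible hexokinase that traps glucose in the cell, was 0.19 on the ethanol array and -0.25 with G15, a range of 0.433. GPI, the glucose 6-phosphate isomerase, had a range of 0.350.

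PKM, the pyruvate kinase that makes the ATP of the last glycolytic step, was the exception. Its 2 probe sets averaged -0.33 on the untreated array, -0.28 with ethanol, -0.04 with estradiol, -0.003 with E2-BSA, 0.38 with G15, 0.35 with E2-BSA plus ICI, 0.52 with E2-BSA plus G15 and 0.67 with BSA. The BSA array, both arrays with G15 and the array with ICI were high, and the untreated and ethanol arrays were low. The BSA and untreated arrays carried no hormone, G15 or ICI. The gap between them was 0.995 (1.99-fold), the 7th highest of 19775 genes in that comparison. No treatment difference of PKM was as large as this one between controls. The probe sets did not behave alike: 201251_at was 0.76 with G15 and 0.88 with E2-BSA plus G15, while 213700_s_at was 0.00 and 0.16 on the same arrays. Which PKM splice forms each one reads was not analysed here.

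PFKFB3 had the widest range of the set, 2.04. It encodes an enzyme that makes fructose 2,6-bisphosphate, the activator of phosphofructokinase, and it is a textbook HIF target. Its single probe set was -0.10 on the untreated array, 1.28 with ethanol, -0.55 with estradiol, 0.21 with E2-BSA, 0.07 with G15, -0.52 with E2-BSA plus ICI, -0.76 with E2-BSA plus G15 and 0.00 with BSA. The ethanol array was high, the estradiol array and both E2-BSA combinations were low, and the other 4 lay between. The other regulators of this step and of pyruvate entry into mitochondria varied far less. PFKFB4, a related bifunctional enzyme, had a range of 0.297, and the pyruvate dehydrogenase kinases PDK1 and PDK3 had ranges of 0.234 and 0.167.

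Transporters and storage genes showed 1 wide range. SLC2A1, the main glucose transporter of most tumour cells, had a range of 0.198. SLC2A3, a high-affinity glucose transporter, was highest with estradiol, at 0.21, with a range of 0.334. GBE1, the glycogen branching enzyme, had a range of 0.248. HILPDA, a lipid droplet protein that inhibits the lipase ATGL, was 0.02 on the untreated array, -0.48 with ethanol, 0.05 with estradiol, 0.06 with E2-BSA, -0.15 with G15, 0.12 with E2-BSA plus ICI, 0.006 with E2-BSA plus G15 and -0.03 with BSA. Only the ethanol array stood low for HILPDA, and there its 2 probe sets read -0.40 and -0.56.

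Among regulators of the oxygen response, HIF1A itself had a range of 0.220 and EGLN1, the main oxygen-sensing prolyl hydroxylase, 0.157. EGLN3, a hydroxylase that HIF induces, was -0.35 on the untreated array, 0.47 with ethanol, -0.11 with estradiol, -0.02 with E2-BSA, -0.26 with G15, 0.10 with E2-BSA plus ICI, 0.007 with E2-BSA plus G15 and 0.13 with BSA. Its ethanol array was high and its untreated array low, in both probe sets. CITED2, which competes with HIF1A for the coactivator p300, ran the other way. It was -0.02 on the untreated array, -0.51 with ethanol, 0.01 with estradiol, -0.05 with E2-BSA, -0.14 with G15, 0.12 with E2-BSA plus ICI, 0.28 with E2-BSA plus G15 and 0.11 with BSA. The ethanol array was low in all 3 CITED2 probe sets, at -0.76, -0.57 and -0.21. MXI1, an antagonist of MYC, was 0.007 on the untreated array, 0.33 with ethanol, -0.005 with estradiol, 0.05 with E2-BSA, -0.11 with G15, 0.00 with E2-BSA plus ICI, -0.11 with E2-BSA plus G15 and -0.32 with BSA. Its extremes were thus both among the control arrays. KDM3A, a histone demethylase, was highest with ethanol, at 0.27, as the mean of 2 probe sets that differed. On the ethanol array 212689_s_at was 0.45 and 242758_x_at 0.10, and the latter was highest with E2-BSA plus ICI, at 0.28.

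The secreted factors differed mainly on the ethanol array. ADM, the vasodilator peptide adrenomedullin, was 0.00 on the untreated array, 0.92 with ethanol, 0.02 with estradiol, 0.18 with E2-BSA, -0.21 with G15, -0.05 with E2-BSA plus ICI, -0.35 with E2-BSA plus G15 and 0.08 with BSA. VEGFA, the main angiogenic growth factor, was 0.45 with ethanol and between -0.070 and 0.021 on the other arrays. All 4 VEGFA probe sets were above 0 with ethanol, from 0.24 to 0.79. The collagen prolyl hydroxylases P4HA1 and P4HA2 had ranges of 0.286 and 0.226, and the collagen cross-linking oxidase LOX 0.129. Of the mitophagy receptors, BNIP3 had a range of 0.265 and BNIP3L one of 0.568, just under 1.5-fold, with 0.34 on the ethanol array. NDRG1, a stress-induced protein, had a range of 0.288, and ANKRD37, a HIF target with ankyrin repeats, 0.447.

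**Figure D2:**
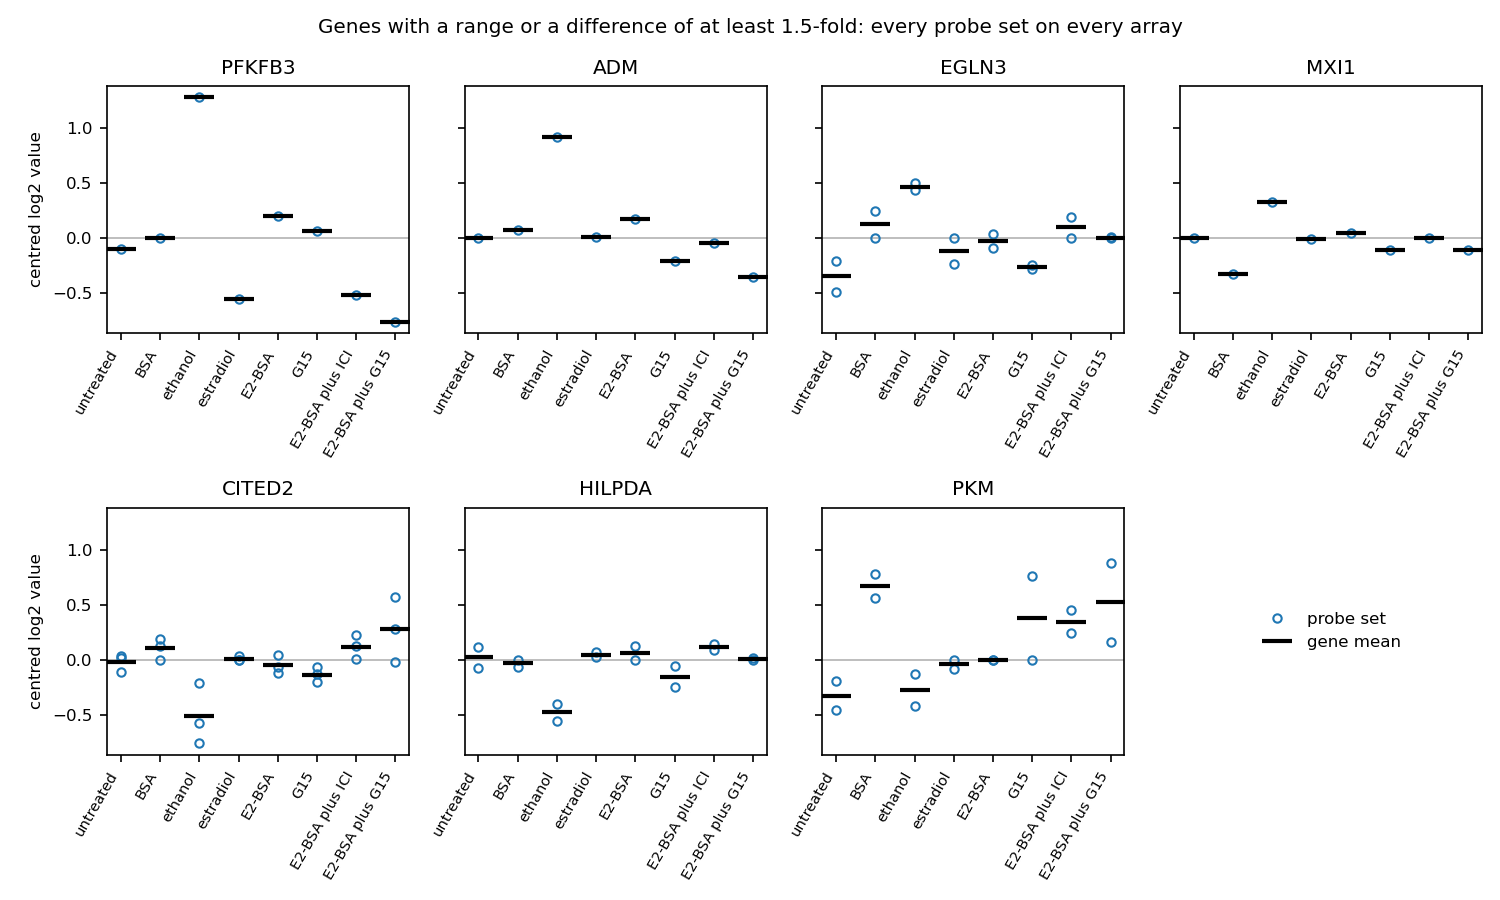
Centred log2 values on each array (horizontal axis) for the 7 genes with a range of at least 1.5-fold; circles are probe sets and bars the gene mean. Ethanol is the highest array for PFKFB3, ADM, EGLN3 and MXI1 and the lowest for CITED2 and HILPDA, and the PKM probe sets part on the G15 arrays.

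Which controls could serve as a baseline was read from ethanol and BSA against untreated cells. With ethanol, PFKFB3 was 1.38 higher than untreated (2.60-fold, 90th highest of 19775 genes), ADM 0.92 higher (1.89-fold) and EGLN3 0.81 higher (1.76-fold), while CITED2 and HILPDA were lower, by -0.49 and -0.50. One of 39 genes (2.56%) reached 2-fold, against 0.885% of all genes, and 3 (7.69%) reached 1.5-fold, against 3.70%. Of the enzymes 12 of 16 were below untreated, with a median of -0.068, beside 56% of all genes and their median of -0.028. The median of the other members was 0.010. The highest of the 8 values fell on the ethanol array for 11 of 39 genes (28.2%), against 19.5% of all genes, and the lowest for 11, close to the 26.4% of all genes. Quantile normalization brought PFKFB3 to 0.70, ADM to 0.46 and the median of the enzymes to -0.013. It left 3 genes lowest on this array. The share of all genes lowest there, and the median over all genes, were not computed with that normalization. With BSA 0 genes reached 2-fold (0.0303% of all genes) and 1, PKM, reached 1.5-fold (0.556%), with medians of 0.006 for enzymes and 0.004 for the others.

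Free estradiol was read against ethanol, its usual vehicle, and against untreated cells, and the values depended on which was used. The labels do not state whether, or at what dose, the estradiol culture also received ethanol. Against ethanol, PFKFB3 was lower by -1.83 (3.55-fold, 44th lowest of 19775) and ADM by -0.90 (1.87-fold). EGLN3 was -0.58 lower, and CITED2 and HILPDA were each 0.52 higher. One gene reached 2-fold, against 0.875% of all genes, and 2 reached 1.5-fold, against 3.40%. Against untreated, PFKFB3 was -0.45 lower and 0 genes reached 2-fold (0.0152% of all) or 1.5-fold (0.177%). The ADM difference was then 0.02, and the medians were 0.001 for the enzymes and -0.010 for the others. Both readings share the estradiol array, and the ethanol comparisons share the ethanol array.

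E2-BSA was read against its carrier and against untreated cells. PFKFB3 was 0.21 above BSA and ADM 0.10 above. PKM was lower by -0.67 (1.59-fold), the 1 gene of the set at 1.5-fold, against 1% of all genes; 0 reached 2-fold (0.0202% of all). With the mean of the untreated and BSA arrays as reference the PKM difference was -0.17. Most members sat a little higher with E2-BSA, 13 of 16 enzymes (median 0.047) and 17 of 23 others (median 0.076), beside 49.3% of all genes and a median of 0.000 over them. Against untreated the counts were 12 of 16 and 18 of 23, with medians of 0.060 and 0.041, beside 52.1% of all genes and their median of 0.009, and 0 genes reached 2-fold (0% of all) or 1.5-fold (0.349%). The highest of the 8 values fell on the E2-BSA array for 8 genes (20.5%), against 14.2% of all genes. Outside the set, 18 of 21 other genes of glucose metabolism were above BSA with E2-BSA (median 0.121). So were 7 of 12 genes of the tricarboxylic acid cycle (median 0.008).

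Estradiol and E2-BSA, the free and the albumin-coupled hormone at the same stated molarity, were then compared directly. PFKFB3 was -0.75 lower with free estradiol (1.68-fold, 13th lowest of 19775), the 1 gene of 39 at 1.5-fold, against 0.384% of all genes. No member reached 2-fold, which 0.0152% of all genes did. Lower values with free estradiol were found for 15 of 16 enzymes, with a median of -0.047, and for 17 of 23 others, with a median of -0.055, beside 52.6% of all genes and their median of -0.011. Outside the set, 7 of 8 luminal markers were lower too (median -0.079), and 14 of 21 other genes of glucose metabolism (median -0.073). Fibroblast markers ran the other way, with 1 of 6 lower.

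**Figure D3:**
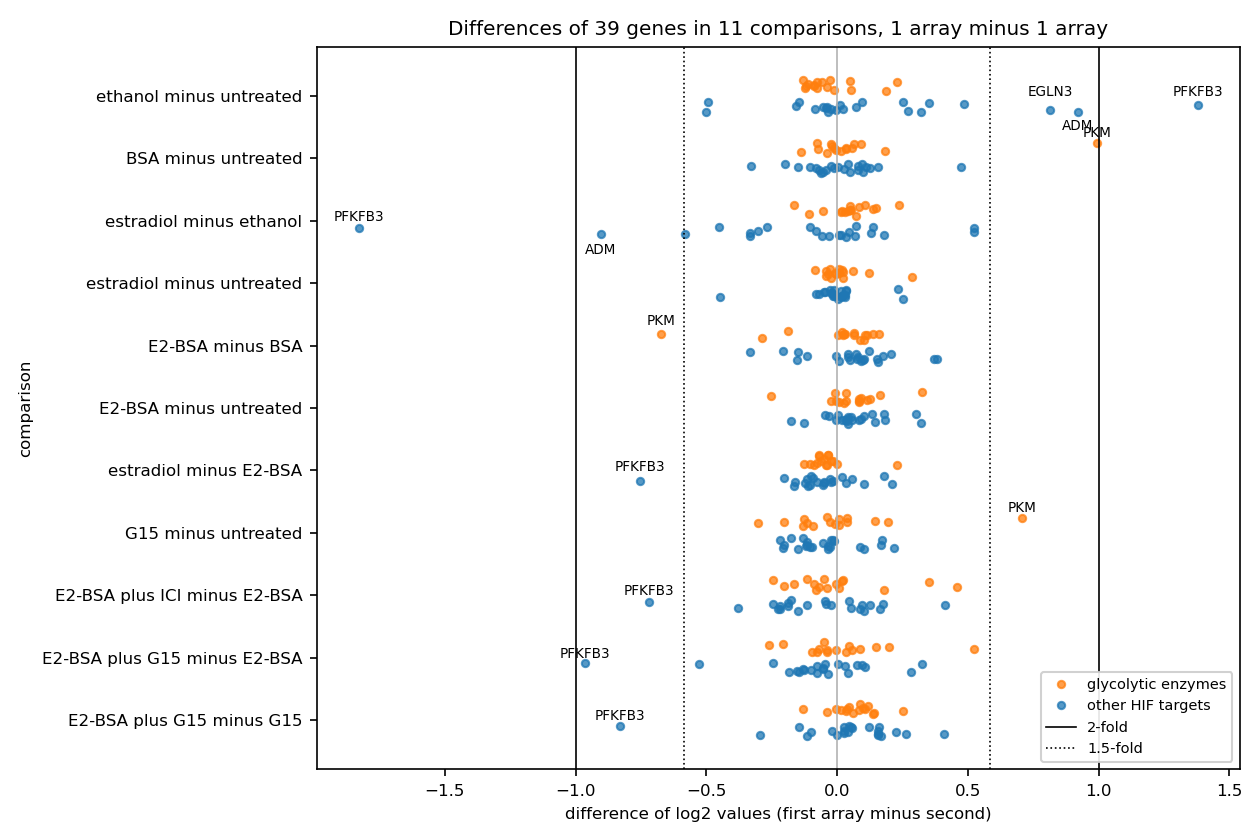
Differences of log2 values (horizontal axis, first array minus second) of the 39 genes in 11 comparisons of 1 array with another, with glycolytic enzymes and other HIF targets in separate colours and lines at 1.5-fold and 2-fold. Points beyond 1.5-fold are PFKFB3, ADM, EGLN3 and PKM, with PFKFB3 at 1.38 and -1.83 in the comparisons with ethanol.

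G15 was read alone and on top of E2-BSA, and ICI only on top of E2-BSA. G15 alone left PFKFB3 0.17 above untreated, and PKM was 0.71 higher (1.63-fold), the 1 gene at 1.5-fold, against 0.531% of all genes; 0 reached 2-fold (0.00506%). On the PKM probe set 201251_at alone that difference was 0.96, and against the mean of untreated and BSA it was 0.21. Of the other members 18 of 23 were below untreated with G15, with a median of -0.054, beside 45.1% of all genes and their median of 0.010, and the enzymes had a median of -0.017. The lowest of the 8 values fell on the G15 array for 10 genes (25.6%), against 9.69% of all genes, among them HK2, PGK1, GAPDH, VEGFA, BNIP3L and NDRG1. Some were near ties. GAPDH was -0.033 with G15 and -0.031 with BSA, and PGK1 was -0.079 with G15 and -0.068 with E2-BSA plus ICI.

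With ICI added to E2-BSA, PFKFB3 was -0.72 lower than with E2-BSA alone (1.65-fold), the 40th lowest of 19775 genes. It was the 1 member at 1.5-fold, against 1.60% of all genes, and 0 reached 2-fold (0.0708%). With G15 added, PFKFB3 was -0.96 lower than with E2-BSA alone (1.95-fold), the 7th lowest, and again the 1 member at 1.5-fold, against 0.794% of all genes, with 0 at 2-fold (0.0455%). ADM was -0.53 lower and PKM 0.52 higher in that comparison. Against G15 alone the same combination had PFKFB3 lower by -0.83 (1.78-fold, 11th lowest), the 1 member at 1.5-fold, against 0.491% of all genes, with 0 at 2-fold (0.0152%). PFKFB3 was thus lower with the combination than with E2-BSA or G15 alone. Medians of the set stayed near 0: -0.043 for enzymes and -0.046 for others with ICI added, -0.022 and -0.055 with G15 added, and 0.073 and 0.047 against G15 alone. The comparisons with E2-BSA share that array and are not independent.

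An error for these differences could be had only by treating the untreated and BSA arrays as 2 samples of 1 group in limma, which lends their spread to every other array. That left 2.333 degrees of freedom, 1.333 of them from a prior, so an adjusted p of 0.05 was hardly within reach. Even CCL20, 7.73 above untreated on the ethanol array, was not called. A larger adjusted p is therefore no sign that 2 arrays were alike. PFKFB3 then differed by 1.33 ± 0.077 (SE) for ethanol, with an adjusted p of 0.27 from limma, and by -1.83 ± 0.089 for estradiol against ethanol, with an adjusted p of 0.38. For ADM with ethanol the difference was 0.88 ± 0.070, adjusted p = 0.27 in limma. In the comparisons of estradiol and the combinations with E2-BSA, and of the G15 combination with G15, the limma adjusted p of PFKFB3 lay between 0.46 and 0.78. With the ethanol array added to that group, the PFKFB3 difference of estradiol from the group was -0.94 ± 0.628 (SE), adjusted p = 1 in limma. The SE of PKM, without the ethanol array, was 0.567, as its reference arrays differed most. No gene of all 19775 passed an adjusted p of 0.05 in limma in these comparisons with either grouping. The unadjusted p was under 0.05 for 458 to 3371 genes and 1 to 6 members with untreated and BSA as the group, and for 197 to 1042 genes and 0 to 1 members with ethanol added to it.

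Other genes of the pathway were read from 3 lists: 13 genes of the HIF machinery, 27 of 30 further HIF targets and 21 of 24 other genes of glucose metabolism. Of these 61 genes 12 (19.7%) had a range of at least 1.5-fold over the 8 arrays, against 13.5% of all genes. Without the ethanol array 4 (6.56%) had such a range, close to the 6.09% of all genes. With ethanol MAFF, a small MAF transcription factor, was 2.86 above untreated, BHLHE40, a transcriptional repressor that HIF induces, 0.89 and BPGM, the bisphosphoglycerate mutase, 0.89. TXNIP, which restrains glucose uptake, was -0.85 lower. Against ethanol, estradiol had MAFF lower by -2.17, DDIT4, an mTORC1 inhibitor, by -1.02, BHLHE40 by -0.93, BPGM by -0.85 and ARNT2, a HIF beta subunit, by -0.64, and TXNIP higher by 0.59. Against untreated MAFF was 0.69 higher with estradiol. PPFIA4 was 0.66 higher with BSA and 0.62 higher with G15, SLC2A4, the insulin-responsive glucose transporter, was -0.73 lower with BSA, and CXCR4, a chemokine receptor, was 0.62 higher with E2-BSA plus G15 than with G15. Of 12 measured genes of the tricarboxylic acid cycle, which the set does not hold, 0 reached 1.5-fold in any comparison. Of all genes 0.177% to 3.70% did, depending on the comparison.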

How the data were processed

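RNA of SKBR3 cells was measured on 8 Affymetrix HG-U133 Plus 2.0 arrays, 1 per condition, grouped by title. The authors' deposited values, read as log2, had in each of 54675 probe sets at most 4 arrays above 0 and at most 4 below, as values centred on a median do. The log base, probe summarization and normalization were not given in the sources used here; with a natural log the folds would be larger. Array medians were 0.

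After 62 control probe sets were left out, probe sets with 1 gene in the platform annotation (41091; 1801 had several and 11721 none) were averaged per gene, and 41037 were matched to a current gene record. No filter on low values was possible. Differences of 1 array minus another were taken in 11 comparisons and counted at 2-fold and at 1.5-fold. limma 3.58.1 (R 4.3.3) was an alternative, with untreated and BSA, or untreated, ethanol and BSA, as 1 group and Benjamini-Hochberg adjustment. The limma step was also run on simulated data, but the outcome is not reported here and says nothing of its power on these arrays. Other steps used Python 3.11.15 with pandas 2.3.3. Promoter sequences were taken from RefSeq, GRCh38.p14. Other alternatives were quantile normalization, centring on 1-gene probe sets, other probe set summaries, and another reference.

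All members are accounted for. Those with a difference or a range of at least 1.5-fold are given on every array, and genes of the other pathway lists are named where they reached 1.5-fold, at most the 4 largest per list and comparison. Members and lists were chosen with earlier results of these data known. Genes such as GAPDH, PGK1 and LDHA have near-identical pseudogenes, and probe sets ending in _s_at or _x_at may read several transcripts.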

Additional observations from a re-analysis of the deposited data

Results flagged for a closer look

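For PFKFB3, the difference between adding and not adding G15 ran opposite ways without and with E2-BSA. G15 alone was 0.17 above untreated, while G15 with E2-BSA was -0.96 below E2-BSA alone, so that the 2 differences were -1.13 apart. Each rests on 1 pair of arrays and was not tested by replicates. With the untreated and BSA arrays as 1 group, limma gave -1.08 ± 0.118 (SE) for this interaction, with an adjusted p of 0.80 over all genes.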

How the results depend on the processing

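No difference of a member at 1.5-fold changed sign. The mean reference puts the mean of untreated and BSA in place of the control array. With it, estradiol minus ethanol becomes another contrast, without the ethanol array. The medians of enzymes and others were all small (at most 0.076 in size) and shifted by up to 0.097, and 9 of 144 changed sign. These were the enzymes in BSA minus untreated (from 0.006 to between -0.0015 and -0.0079) and estradiol minus untreated (from 0.001 to between -0.0005 and -0.0054), both in estradiol minus ethanol (enzymes from 0.048 to -0.0015 with the mean reference, others from -0.032 to 0.007 with medians of probe sets), and the enzymes in E2-BSA plus G15 minus E2-BSA (from -0.022 to 0.015 with the probe set of largest SD). Counts at 2-fold moved in these cases, with limma left aside because it could hardly call any gene. For ethanol minus untreated (1 member) the count was 0 with quantile normalization and 3 at 1.5-fold. For estradiol minus ethanol (1) it was 0 with the mean of untreated and BSA in place of ethanol, and 2 at 1.5-fold. For BSA minus untreated (0) and E2-BSA plus G15 minus E2-BSA (0) it was 1 with quantile normalization and 1 at 1.5-fold. It was also 1 at 1.5-fold, from 0, for E2-BSA minus BSA, estradiol minus E2-BSA, G15 minus untreated, E2-BSA plus ICI minus E2-BSA and E2-BSA plus G15 minus G15. Members lowest on the ethanol array went from 11 to 3 with quantile normalization, and those highest on E2-BSA from 8 to 16 without the ethanol array, against 22.9% of all genes. Members with a range of at least 1.5-fold went from 7 to 13 with the probe set of largest SD. They went to 2 without the ethanol array, against 6.09% of all genes. Shares over all genes were not computed with quantile normalization or with the probe set of largest SD. The counts of 3 and 13 are therefore not results about the members. The alternatives for these last counts, and the count of ranges, were chosen after seeing the data. For single genes 77 values kept and 21 moved. Estradiol minus the mean of untreated and BSA, in place of estradiol minus ethanol, was -0.50 for PFKFB3 and -0.02 for ADM. That is a change of contrast rather than of processing. With the mean reference, EGLN3 in ethanol minus untreated was 0.58. Part of the 77 could not move. Other probe set summaries leave PFKFB3 and ADM, with 1 probe set each, unchanged. A median of probe sets equals the mean for PKM and EGLN3, with 2 each. Such kept values, and the absence of sign changes in them, are no measure of stability. The causes were not tested. No paired analysis was possible because each condition has 1 array. PFKFB3 and ADM rest on 1 probe set each, and signal over background is unknown because levels were removed.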

Other observations

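The stress list was also read on the 3 arrays where PFKFB3 was low, a choice made after the values were seen. Of its 10 genes 4 were below 0 on all 3, against 7.69% of all genes, and 9 were high with ethanol. Any value below 0 was counted, however small. ATF3, 1 of the 4, was -0.054 with estradiol, -0.009 with E2-BSA plus ICI and -0.197 with E2-BSA plus G15. Whether PFKFB3 and the stress list share a signal was not tested. HMOX1, the heme oxygenase, was 2.20 with ethanol, -0.21 with estradiol, -0.48 with E2-BSA plus ICI and -0.58 with E2-BSA plus G15. CDKN1A, a cell cycle inhibitor, was 1.26, -0.71, -0.51 and -0.64 on the same arrays. DDIT3, a transcription factor of the integrated stress response, was 1.58 with ethanol and between -0.054 and 0.076 on those 3 arrays, and PPP1R15A, a phosphatase subunit of that response, was 3.05 and between -0.014 and 0.067.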
